A study of Mus musculus with 2 samples.

Results

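DNA replication and S-phase genes were followed across the cell classes of mouse bone marrow. The 39 genes, taken by symbol from a fixed list, code for the proteins that license and fire origins, unwind and copy DNA, supply nucleotides and package the new strands. They are 39 of the 32285 genes in the count tables, and all 39 gave reads in both libraries. The series compared total femoral marrow of 1 WT mouse, a littermate control, with that of 1 DKO mouse (VavCre:Ddx41 fl/fl, cGAS-/-) by single-cell RNA sequencing with the 10x Genomics 3' v3 chemistry. VavCre acts throughout the hematopoietic system, and the study's authors point out its expression in oocytes and endothelial cells, so deletion may reach beyond blood cells. The DKO mouse also lacked cGAS in every tissue, and there was no group with only 1 of the deletions, so the effects of the 2 deletions cannot be told apart. The label WT gives no alleles. By the methods such littermates had floxed Ddx41 alleles, no VavCre and intact cGas, and the legend to the marrow maps gives an age of 2 months.

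Cells that divide load the MCM helicase onto origins in G1, with Cdc6 and Cdt1 as loaders and geminin (Gmnn) as the brake on reloading. Cyclin E and its kinase then start S phase, in which the MCM ring joins Cdc45 and the GINS complex, polymerases extend primed strands behind the sliding clamp PCNA, and ribonucleotide reductase makes the deoxynucleotides. Marrow is a tissue of fast division, and erythroblasts, granulocyte progenitors and large pre-B cells are its textbook cycling populations, while reticulocytes, mature neutrophils and resting B cells no longer replicate DNA. E2F transcription factors drive many of these genes, and the DREAM complex holds them down outside the cell cycle.

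The E2F motif was common around the starts of these genes. RefSeq (build GRCm38.p6) gave 37 start regions, from 250 bases before to 50 bases after a start, for 32 of the 39 genes, and none was given for Mcm4, Gins1, Gins2, Gmnn, Pole, Rfc2 and Ccne2. An exact octamer of the E2F type (TTTGGCGC, TTTCCCGC, TTTGCCGC or TTTCGCGC on either strand, overlaps allowed) was found in 13 of the 37 regions, or 35.1%, against 744 of all 32851 regions, or 2.26%. In 8 of the 13 an octamer lay before the start, and in 5 (Mcm3, Clspn, Lig1, Pold1 and Cdt1) it lay only after it. The CCAAT box, the pentamer CCAAT on either strand, was in 22 of 37 (59.5%) against 37.4% of all regions. Of the CHR elements through which DREAM binds, TTTGAA was in 10.8% of the regions against 17.9% of all, and TTCGAA in 5.41% against 1.56%. A match describes letters only and does not show binding. The 3 stretches below were chosen because they lie upstream of the annotated transcripts of helicase subunits Mcm6 and Mcm5 and of Pola1, the catalytic subunit of the primase-bound polymerase, whose values recur in the results. Each reads 5' to 3' on the strand of its gene, and capitals mark the E2F octamers.
Mcm6, chr1:128359715-128359845, minus strand: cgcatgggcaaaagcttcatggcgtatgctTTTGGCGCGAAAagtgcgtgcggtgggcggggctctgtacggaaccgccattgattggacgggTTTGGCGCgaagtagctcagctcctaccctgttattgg
Mcm5, chr8:75109326-75109397, plus strand: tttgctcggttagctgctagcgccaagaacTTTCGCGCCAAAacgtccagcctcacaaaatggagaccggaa
Pola1, chrX:93632256-93632323, minus strand: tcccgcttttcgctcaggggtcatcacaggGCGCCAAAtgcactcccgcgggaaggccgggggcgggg
The Mcm6 stretch holds 3 octamers, 2 of which overlap in the capitals TTTGGCGCGAAA, the Mcm5 stretch holds 2 that overlap in TTTCGCGCCAAA, and the Pola1 stretch holds 1 in the reverse orientation.

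After filters on cells the WT library held 18663 cells and 118681697 UMIs (unique molecular identifiers, 1 per captured transcript), and the DKO library 13703 cells and 114449758 UMIs. The S-phase genes took 269444 UMIs in WT and 263328 in DKO, or 2270 and 2301 CPM (UMIs scaled to 1000000 UMIs of the summed cells). Ddx41 was at 20.3 CPM in WT and 8.004 CPM in DKO, and Cgas at 13.6 and 7.24 CPM. Where the deletions lie relative to the counted 3' ends is not given in the sources used here, so the remaining reads do not check the genotypes. The median depth per cell was 4866 UMIs in WT and 6900 in DKO, and hemoglobin genes took 28.5% and 36.4% of UMIs. Since each genotype was sequenced once, differences between WT and DKO carry no test. Intervals are exact 95% intervals that cover counting error only, and a gene was called when it was past 1.5-fold with a mean level of at least 20 CPM. Clusters were made without the S-phase genes, other cell cycle genes and histone genes, so that the level of these genes did not set the classes.

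Early erythroid-like cells, named from markers such as Epor, Gata1, Klf1 and Car1, held the highest level of the S-phase genes in both libraries. The 39 genes summed to 6441 CPM (95% interval 6402 to 6480) in WT and 6553 CPM (6520 to 6586) in DKO. Pro-B and large pre-B-like cells followed with 5176 and 4741 CPM, then granulocyte-monocyte progenitor-like cells with 4150 and 4039 CPM. These 3 classes kept the same order in both mice, with intervals apart from each other.

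Below them stood small pre-B and immature B-like cells at 3606 CPM in WT and 3674 in DKO, basophil or mast-like cells at 3325 and 3234 CPM, and monocyte-like cells at 2171 and 2237 CPM. Plasmacytoid dendritic-like cells had 1722 and 1749 CPM, and early neutrophil-like cells 1350 and 1843 CPM. These last classes held places 7 and 8 in WT and exchanged them in DKO. At the other end, late neutrophil-like cells had 271 and 179 CPM and late erythroid-like cells 129 and 59.2 CPM.

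The level in WT barcodes without a cell was 2967 CPM (2914 to 3020), measured on 12085 UMIs of the genes, which is above that of every class from the monocyte-like cells down. Among classes that do not divide, the WT level in late neutrophil-like cells would be reached if 9.15% of their UMIs came from the profile of empty barcodes, and that in late erythroid-like cells if 4.35% did. Reads of the S-phase genes in non-dividing classes, and their differences between libraries, are therefore given as values and not read as replication. The DKO table listed only barcodes already called as cells, so its empty barcodes were not analysed here.

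**Figure D1:**
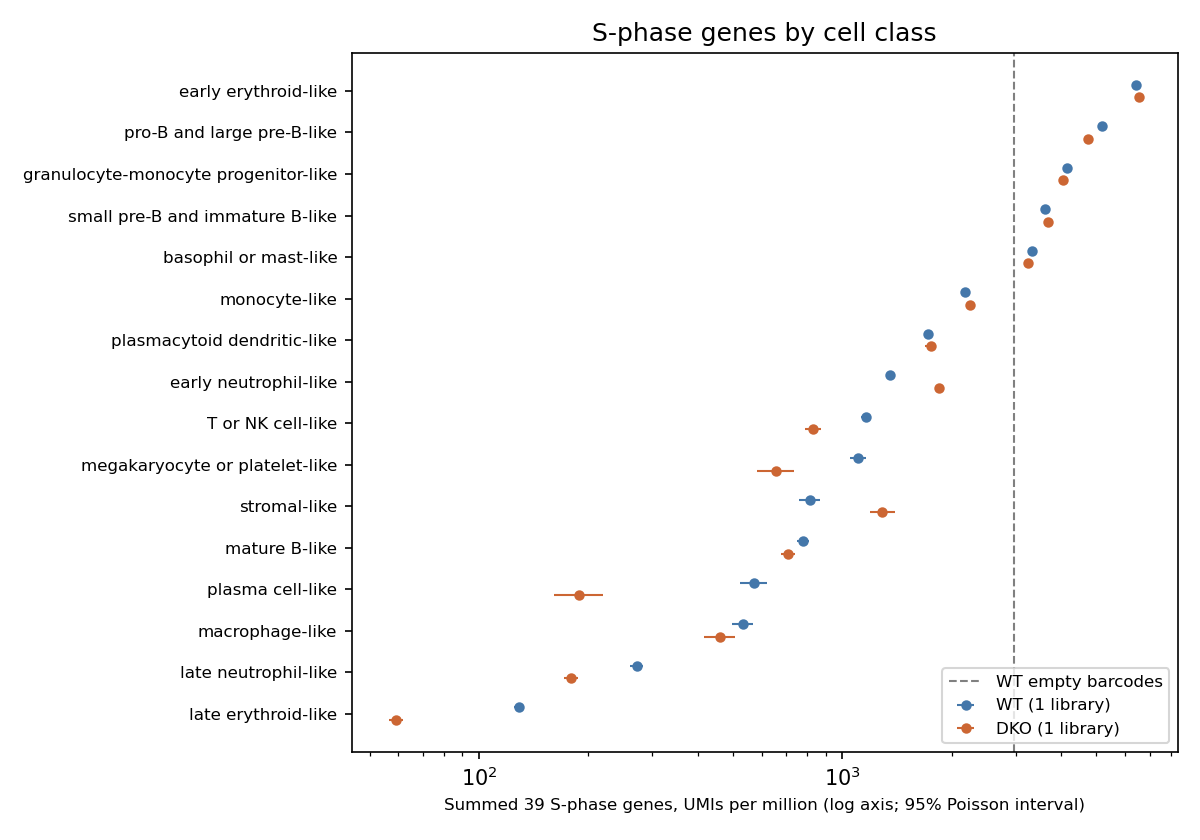
Summed level of the 39 S-phase genes in 16 cell classes, in CPM on a log axis, with 1 point per library (blue WT, orange DKO) and 95% Poisson intervals. The dashed line is the level in WT empty barcodes at 2967 CPM, and the 5 topmost classes lie above it in both libraries.

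Most single genes followed the sum. In WT 28 of the 39 genes had their highest class level in early erythroid-like cells, in DKO 27 did, and 36 had the same leading class in both libraries. Ccne1, a cyclin E, was the most erythroid of them, with 63.3% of its WT UMIs and 81.2% of its DKO UMIs from early erythroid-like cells. For comparison, the class took 38.6% and 57.3% of the UMIs of all S-phase genes. Scaled to non-hemoglobin UMIs, 32 genes in WT and 33 in DKO had their highest level in this class.

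A few genes had their peak elsewhere. Since hemoglobin takes a large share of early erythroid-like UMIs, levels are given here scaled to non-hemoglobin UMIs, in CPM. Pold1, the catalytic subunit of the lagging-strand polymerase, led in small pre-B and immature B-like cells at 80.8 CPM in WT and 76.5 CPM in DKO, against 32.1 and 35.1 CPM in early erythroid-like cells. Rfc2, a clamp loader subunit, led in basophil or mast-like cells at 196 and 176 CPM, against 149 and 118 CPM. These 2 genes, and Gins2 in pro-B and large pre-B-like cells (79.7 and 65.8 CPM, against 55.0 and 45.6 CPM), had the same leading class in both libraries on either scale.

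The leading class of other genes depended on the library or the scale. Dut, the dUTPase that keeps uracil out of DNA, was at 836 CPM in WT and 579 CPM in DKO in pro-B and large pre-B-like cells, against 723 and 617 CPM in early erythroid-like cells, so its order turned in DKO. Uhrf1, which brings the maintenance methyltransferase to new strands, was at 241 and 284 CPM, against 214 and 288 CPM. Cdc45 was highest in granulocyte-monocyte progenitor-like cells of all UMIs (62.8 and 67.1 CPM, against 60.5 and 50.9 CPM), but in early erythroid-like cells without hemoglobin (83.9 and 75.1 CPM, against 63.7 and 68.2 CPM).

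Summed over all early erythroid-like cells, the level was close to equal in the libraries, but the ratio differed among the 4 clusters of the class. The log2 ratio of DKO to WT was 0.025 (0.014 to 0.036), an interval that excludes 0 for counting error only. The direction was not stable, since the ratio was -0.014 with only the cells above the higher UMI threshold of each library and -0.030 with cell cycle genes kept in the clustering. The mix of clusters differed, with 627 of 2170 WT cells and 808 of 2020 DKO cells in the cluster of highest level (8736 and 8665 CPM, log2 ratio -0.01) and 662 and 388 cells in one of 5516 and 4848 CPM (-0.19, -0.21 to -0.16). The cluster of low UMIs had a ratio of 0.09 (7141 and 7584 CPM, 507 and 437 cells), and the cluster of lowest level a ratio of -0.45 (915 and 672 CPM, 374 and 387 cells). The class ratio is thus an average over differing parts, and single-gene ratios of the class hold the same mix.

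Of the 38 genes with a level of at least 20 CPM, 22 were higher and 16 lower in DKO, with a median log2 ratio of 0.05 against -0.02 over all 4502 genes of that level. Over all genes of that level 46.8% were higher. Past 1.5-fold, 1 of the 38 was higher in DKO (Ccne2) and 0 were lower, where 0.711% of all genes were higher and 3.22% lower. Ung, the uracil glycosylase, was under the minimum at 12.3 CPM in WT and 11.2 CPM in DKO. Hemoglobin took 27.9% of the class's UMIs in WT and 32.3% in DKO, and scaled to the UMIs of other genes alone the sum was 8934 CPM in WT and 9678 CPM in DKO, a log2 ratio of 0.12.

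Summed over the whole class, origin licensing genes were close to equal in early erythroid-like cells. The helicase subunits Mcm2 to Mcm7 had log2 ratios from -0.06 to 0.11, with Mcm7 at 297 CPM in WT and 285 CPM in DKO and Mcm2 at 199 and 205 CPM. The loaders Cdc6 (109 and 126 CPM, log2 ratio 0.21) and Cdt1 (94.0 and 108 CPM, 0.20) were higher in DKO. Gmnn, which binds Cdt1, was lower, with 303 CPM in WT (295 to 312) and 239.7 CPM in DKO (233 to 246) and a log2 ratio of -0.34 (-0.40 to -0.28). Summed over its 10 genes, the licensing group was at 1668 CPM in WT and 1661 CPM in DKO.

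The partners that turn the MCM ring into an active helicase were low, at 164 CPM in WT and 144 CPM in DKO in sum, a log2 ratio of -0.19 (-0.27 to -0.12). Gins2 was at 39.7 CPM in WT and 30.9 CPM in DKO (log2 ratio -0.36, -0.52 to -0.21), and Cdc45 at 60.5 and 50.9 CPM (-0.25, -0.37 to -0.13). Gins1 and Gins3 had intervals that include 0. Of the polymerase genes, Pola1 was higher in DKO, at 292 CPM (285 to 299) against 242 CPM (235 to 250) in WT, a log2 ratio of 0.27 (0.21 to 0.33). Prim1, the primase, and Pold1 had intervals that include 0, and Pole, the leading-strand polymerase, had a log2 ratio of -0.16.

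Clamp and clamp loader genes had ratios of either sign. Pcna, at the top of the class by level in both libraries, was at 522 CPM in WT (511 to 533) and 589 CPM in DKO (579 to 599), a log2 ratio of 0.17. The 3 clamp loader subunits among the 39 genes were lower, with Rfc2 at 108 CPM in WT and 80.2 CPM in DKO (log2 ratio -0.42, -0.52 to -0.33), Rfc4 at 135 and 106 CPM (-0.35) and Rfc3 at 52.8 and 47.1 CPM (-0.17). The subunit Rfc5, from the comparison list, was also lower, at 49.99 CPM in WT and 37.6 CPM in DKO (-0.41, -0.55 to -0.27). The large subunit Rfc1, from the same list, was at 101 and 99.8 CPM (-0.01, -0.10 to 0.08), and Rfc1 is named here after its value was seen. Single-strand binding proteins split as well, since Rpa1 had a log2 ratio of 0.20 and Rpa2 of -0.26. Lig1, which seals Okazaki fragments, was at 215 CPM in WT and 235 CPM in DKO, and Fen1, which trims them, at 167 and 144 CPM.

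Nucleotide supply was led by ribonucleotide reductase. Rrm2, its S-phase subunit, was at 515 CPM in WT (504 to 526) and 561 CPM in DKO (551 to 571), and Rrm1, its large subunit, at 296 and 344 CPM, log2 ratios of 0.12 and 0.22. Dut, Tk1 and Tyms went the other way. Dut had a log2 ratio of -0.32 (-0.36 to -0.28), Tk1 (215 CPM in WT and 186 CPM in DKO) of -0.21, and Tyms (204 and 189.6 CPM) of -0.10. The salvage enzyme Dck, among the highest ratios of the other replication genes, was at 169 and 216 CPM (0.35, 0.28 to 0.42).

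Chromatin and checkpoint genes were mostly higher in DKO. Slbp, which binds histone mRNA, was at 408 CPM in WT and 427 CPM in DKO, a log2 ratio of 0.07, while Uhrf1 was at 154 and 195 CPM, a ratio of 0.34 (0.27 to 0.41). Chaf1a, the large subunit of the chromatin assembly factor, had a log2 ratio of 0.24, and its partner Chaf1b an interval that includes 0. Clspn, the adaptor of the replication checkpoint, was at 171 and 185 CPM. Ccne2 was the gene furthest from 0, at 99.99 CPM in WT (95.2 to 105) and 154 CPM in DKO (149 to 159), a log2 ratio of 0.62 (0.54 to 0.71). Its log2 ratio was 0.53 without the early erythroid-like cluster of low UMIs and 0.56 with cell cycle genes in the clustering, both under 1.5-fold.

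Within bins of hemoglobin share several of the lower values were smaller or absent. Dut had log2 ratios of -0.13 (-0.18 to -0.08) in erythroid-like cells under 15% hemoglobin, 0.02 (-0.07 to 0.11) from 15 to 40% and 0.01 from 40 to 75%. Gmnn stayed lower in the first bins, at -0.27 and -0.33, and was at 0.20 from 40 to 75%. Rfc2 was at -0.25 and -0.27 in the first bins, Rfc4 at -0.20 and -0.14, and Rfc3 at 0.07 and 0.08 with intervals that include 0. The helicase partners as a group had ratios of -0.07 (-0.17 to 0.03), -0.08 (-0.22 to 0.05) and, from 40 to 75%, 0.42 (0.22 to 0.64). Of the higher values, Pola1 (0.41 and 0.38) and Uhrf1 (0.45 and 0.39) were larger in the first bins than in the class as a whole. The licensing group, close to equal over the class, had ratios of 0.14 (0.11 to 0.17), 0.17 (0.13 to 0.21) and, from 40 to 75%, 0.43 (0.36 to 0.49). The medians over all genes in these bins were 0.10, 0.04 and 0.12.

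Other cell cycle genes in the same cells gave sums as close. The 47 other replication genes summed to 4343 CPM in WT and 4391 in DKO (log2 ratio 0.02), with 23 higher and 21 lower among 44 at the minimum level and 0 past 1.5-fold in either direction. Of these, Atad2, an S-phase chromatin ATPase, was at 248 and 290.0 CPM, and Dscc1, of the alternative clamp loader, at 30.4 and 22.4 CPM. The 29 G1/S regulators summed to 3985 and 3996 CPM, with E2f2, the erythroid E2F, at 340.2 and 426 CPM and Cdk4 at 140 and 92.8 CPM, which was the only one of them past 1.5-fold. The 40 mitosis genes summed to 12846 and 12698 CPM, with Mki67 at 1234 and 1573 CPM and Pttg1, securin, at 59.95 and 28.95 CPM, again the only one past 1.5-fold. All 3 lists were chosen, like the 39 genes, with earlier results of these data known.

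Granulocyte-monocyte progenitor-like cells, 687 in WT and 273 in DKO, gave a summed log2 ratio of -0.04 (-0.06 to -0.02). Of 38 genes at the minimum level, 23 were higher and 15 lower in DKO, where 59.4% of all genes were higher. Past 1.5-fold were 0 of the 38, where 5.97% of all genes were past it upward and 1.23% downward. Pola1 was the highest, at 119 CPM in WT and 165 CPM in DKO (log2 ratio 0.47, 0.37 to 0.57), followed by Cdt1 (63.1 and 80.8 CPM, 0.36) and Mcm10 (30.5 and 37.8 CPM, 0.31), which tethers the helicase to polymerase. Lowest were Ung (30.6 and 23.5 CPM, -0.37), Dut (567 and 440.3 CPM, -0.36) and Ccne1 (25.5 and 19.8 CPM, -0.36). Ccne1 reached 20 CPM in WT only and passed on the mean, so its place here is partly set by that limit. The nucleotide supply group as a whole was lower, at 1155.5 CPM in WT and 977 CPM in DKO, a log2 ratio of -0.24 (-0.28 to -0.20), and the polymerase group was higher, at 253 and 315 CPM, a ratio of 0.32 (0.24 to 0.39).

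Pro-B and large pre-B-like cells, 204 in WT and 116 in DKO, had a summed log2 ratio of -0.13 (-0.17 to -0.08). Past 1.5-fold, Ccne2 was higher in DKO (37.3 CPM in WT and 67.2 CPM in DKO, log2 ratio 0.84, 0.39 to 1.32), which is 1 of 38 genes where 7.46% of all genes were past it upward. Tyms (149 and 93.7 CPM, -0.67, -0.98 to -0.38) and Gmnn (213 and 139 CPM, -0.61, -0.86 to -0.37) were lower, 2 of 38 where 3.94% of all genes were past it downward. These calls depended on the processing. With cell cycle genes in the clustering Gmnn was at -0.39 and Ccne2 at 0.49, at resolution 0.6 they were at -0.51 and 0.51, and with doublets kept Gmnn was at -0.57 and Tyms at -0.53, all inside 1.5-fold. Tk1 was just inside the limit at 81.4 and 54.3 CPM (-0.58), and Ung (19.2 and 28.4 CPM, 0.55) and Chaf1a (43.5 and 63.3 CPM, 0.54) were the next highest. Ung reached 20 CPM in DKO only and passed on the mean, so its place here is partly set by that limit. The nucleotide supply group was at 1488 CPM in WT and 1079 CPM in DKO, a log2 ratio of -0.46 (-0.55 to -0.37), while the licensing group was at 1217 and 1222 CPM.

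Early neutrophil-like cells, with the secondary granule genes Camp, Ngp and Ltf, had a higher level of nearly all measured S-phase genes in the DKO library. Their sum was 1350 CPM in WT (1329 to 1372) and 1843 CPM in DKO (1816 to 1870), a log2 ratio of 0.45 (0.42 to 0.48). Of 26 genes at the minimum level, 24 were higher in DKO, 23 of them with an interval above 0, where 72.5% of all genes were higher. Past 1.5-fold upward were 9 of the 26, where 6.88% of all genes were past it. None of the 26 was past it downward, where 0.957% of all genes were. The median log2 ratio over the 26 genes was 0.48, against 0.20 over all 5018 genes of that level. Scaled by that median ratio of all genes, the summed log2 ratio was 0.25. Of the 26 genes, 3 (Prim1, Chaf1a and Ccne2) reached 20 CPM in DKO only and passed on the mean, so their place among the calls is partly set by that limit. Of the 23 at 20 CPM or more in both libraries, 21 were higher and 6 were past 1.5-fold. The class was looked at in detail after its value was seen.

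Ccne2, one of these 3, was at 16.8 CPM in WT (14.5 to 19.4) and 41.9 CPM in DKO (38.0 to 46.1), a log2 ratio of 1.32 (1.07 to 1.58). Of the genes over the minimum in both libraries, Pola1 was furthest at 32.9 and 62.7 CPM (0.93), followed by Rpa1 at 20.5 and 38.1 CPM (0.89). Uhrf1, Mcm6, Chaf1a, Mcm5, Pcna and Prim1 made up the other genes past 1.5-fold. Pcna was at 92.0 CPM in WT and 147 CPM in DKO. Gmnn (81.5 and 80.6 CPM, -0.02) and Rfc4 (26.9 and 23.9 CPM, -0.17) were the 2 that were not higher. The other replication genes had a summed log2 ratio of 0.29 in this class, the G1/S regulators of 0.24 and the mitosis genes of 0.23, which are lower than that of the S-phase genes with intervals apart from it.

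Markers of neutrophil stage also differed between the libraries in this class. Fcnb, a granule gene of the earlier stage, was at 676 CPM in WT and 891 CPM in DKO, while Lcn2 was at 14025 and 9627 CPM and Retnlg, a gene of mature neutrophils, at 267 and 87.8 CPM. Markers of a stage did not all go the same way. Of the late neutrophil markers, Mmp8 was higher in DKO (120 and 148 CPM) and Mmp9 lower (320 and 274 CPM). Of the early markers, Camp (log2 ratio -0.11), Ngp (-0.16), Ltf (-0.08) and Chil3 (-0.24) were lower, and Cebpe (-0.03) had an interval that includes 0. Of the azurophil granule genes, made at the stage before, Prtn3 was at 187 and 90.4 CPM, Elane at 125 and 103 CPM and Mpo at 19.4 and 19.2 CPM. Cells with Fcnb at 1000 CPM or more were 17.9% of the class in WT and 24.7% in DKO. Their S-phase sum was 2494 and 2983 CPM, a log2 ratio of 0.26 (0.22 to 0.30), and in the remaining cells it was 930.0 and 1252 CPM, a ratio of 0.43 (0.38 to 0.47). The part of stage in the difference was not tested beyond this split.

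**Figure D2:**
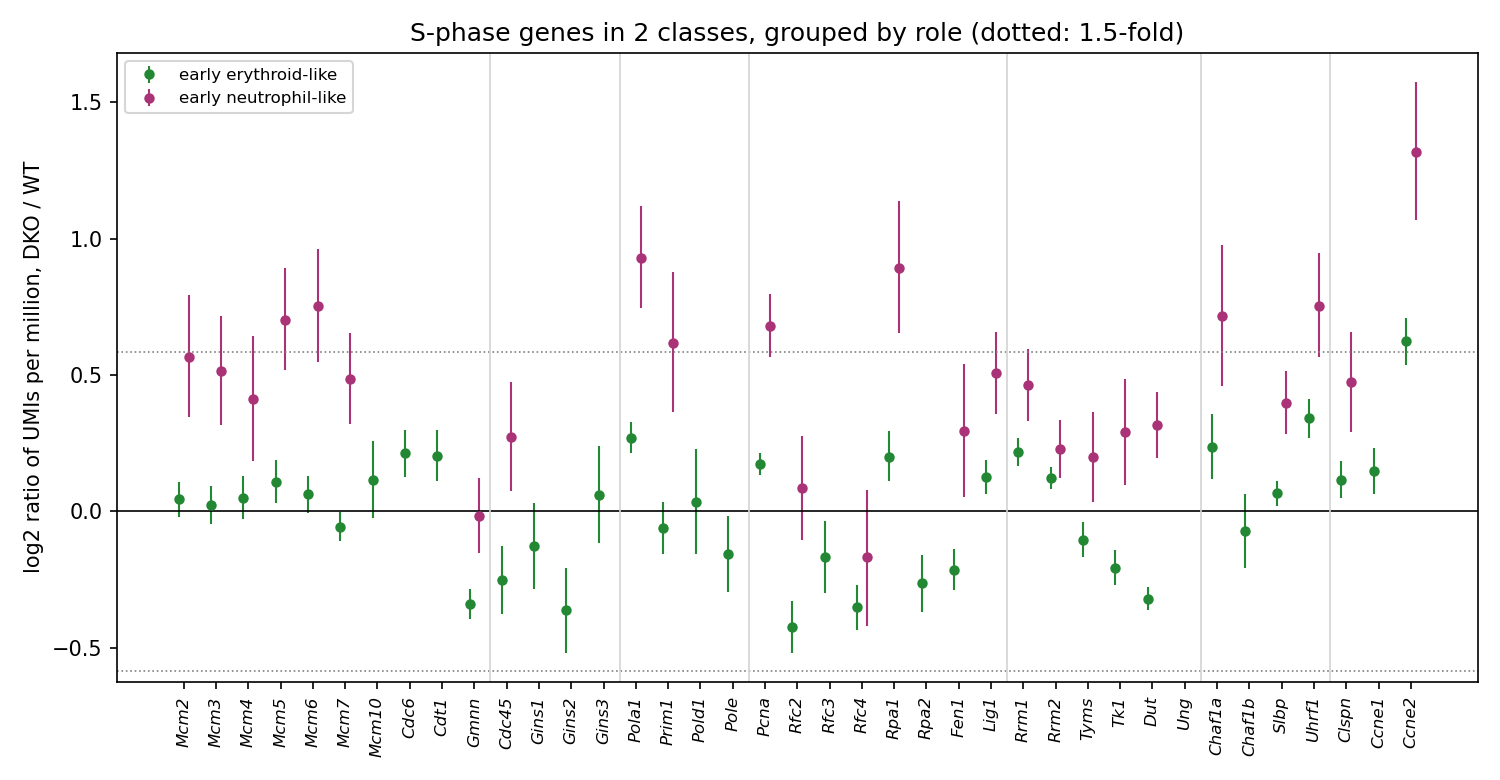
Log2 ratio of DKO to WT for each S-phase gene with at least 20 CPM, grouped by role, in early erythroid-like (green) and early neutrophil-like cells (purple), with 95% counting intervals and dotted lines at 1.5-fold. Green points scatter on both sides of 0 with Ccne2 highest at 0.62, and 24 of 26 purple points lie above 0.

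The remaining classes with at least 13 of the genes at the minimum level held few calls, apart from T or NK cell-like and stromal-like cells. In small pre-B and immature B-like cells the summed log2 ratio was 0.03 (-0.01 to 0.06), and 1 of 37 genes was past 1.5-fold, Tyms at 65.7 CPM in WT and 39.5 CPM in DKO, where 2.48% of all genes were past it upward and 1.81% downward. Basophil or mast-like cells had a ratio of -0.04, with Rfc4 (64.9 and 43.0 CPM) and, under the minimum in DKO, Ung (32.5 and 19.5 CPM) past it downward, 2 of 36 where 3.41% of all genes were past it upward and 2.33% downward. In monocyte-like cells the ratio was 0.04 and Ccne2 (21.0 and 31.9 CPM) was 1 of 34 past it upward, where 4.52% of all genes were past it upward and 1.99% downward.

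Plasmacytoid dendritic-like cells had Rrm2 past 1.5-fold downward (53.3 CPM in WT and 35.0 CPM in DKO), 1 of 28 genes where 8.48% of all genes were past it upward and 3.98% downward. Mature B-like cells had Dut (62.9 and 39.1 CPM), 1 of 13 where 7.13% were past it upward and 3.14% downward. In T or NK cell-like cells the sum was 1161 CPM in WT and 832 CPM in DKO (log2 ratio -0.48), with 6 of 19 genes past it downward (Mcm3, Mcm4, Rrm2, Gmnn, Rfc2 and Dut), where 10.4% of all genes were past it upward and 5.47% downward. Gmnn (42.7 and 15.5 CPM) and Rrm2 (36.8 and 14.997 CPM) passed the minimum through WT, and of the 15 genes at 20 CPM or more in both libraries 4 were past it downward.

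In stromal-like cells the sum was 812 CPM in WT and 1288 CPM in DKO (log2 ratio 0.67, or 0.41 scaled to non-hemoglobin UMIs). Of 19 genes 10 were past 1.5-fold upward, and of the 13 at 20 CPM or more in both libraries 5 were (Mcm7, Pcna, Rrm1, Rrm2 and Slbp), where 32.7% of all genes were past it upward and 5.64% downward. Hemoglobin took 33.6% of the UMIs of this class in WT and 20.9% in DKO, and 27.4% of its WT UMIs would have to come from the profile of empty barcodes to supply the WT level. The part of such reads in the stromal-like and T or NK cell-like differences was not tested.

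Several genes had the same direction in most classes. Ccne2 was higher in DKO in 7 of the 7 classes with at least 20 CPM on the mean and Chaf1a in 8 of 8, or in 5 of 5 and 7 of 7 with 20 CPM in both libraries. Rpa1 was higher in 10 of 11 classes and Pola1 in 9 of 11. Rfc4 was lower in 8 of 8, Gins2 in 6 of 6, Rfc2 in 13 of 14 and Gmnn in 11 of 12. With 20 CPM in both libraries Rfc2 was lower in 11 of 12 and Gmnn in 9 of 10. Dut was lower in 11 of 14 classes, 10 of them with an interval below 0. Intervals above 0 were fewer, in 5 classes for Ccne2, 4 for Chaf1a, 6 for Rpa1 and 6 for Pola1. Intervals below 0 were in 6 classes for Rfc4, 2 for Gins2, 7 for Rfc2 and 8 for Gmnn. The same count over all genes is not given here. The classes come from the same 2 libraries and are not replicates, so a count over classes is a description of these mice and preparations.

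The exonic length and the span of a gene moved with these ratios over all genes. Across the 4502 genes at the minimum level in early erythroid-like cells, Spearman's rho between exonic length and the log2 ratio was 0.49, and it was between 0.43 and 0.57 in the 7 classes looked at. For gene span, introns included, rho was 0.46 in early erythroid-like cells and between 0.44 and 0.62 in the 7 classes. Over the 38 S-phase genes rho was 0.29 for exonic length and 0.25 for gene span in early erythroid-like cells. In granulocyte-monocyte progenitor-like cells it was 0.39 and 0.51. All values in a class come from the same pair of libraries, so these correlations describe the libraries. Of the genes that were higher in most classes, Pola1 has 8813 exonic bases, Chaf1a 8854, Rpa1 5578 and Ccne2 3495. Of those that were lower, Gmnn has 1465, Rfc4 1533, Dut 2410, Gins2 4097 and Rfc2 6303.

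Genes under 2000 exonic bases had a median log2 ratio of -0.30 over 690 genes in early erythroid-like cells, and the 3 S-phase genes among them had -0.34. Genes from 2000 to 4000 bases, where Ccne2 lies, had a median of -0.15 over 1163 genes, against 0.05 for the 15 S-phase genes of that length. The values of Gmnn and Rfc4 thus lie near those of other short genes, and that of Ccne2 lies away from those of its length class. Dut (-0.32), also from 2000 to 4000 bases, was below that median. Genes from 4000 to 8000 bases had a median of 0.06 over 1654 genes, and Rfc2 (-0.42) and Gins2 (-0.36) of that length were below it. The part of length in single ratios was not tested.

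**Figure D3:**
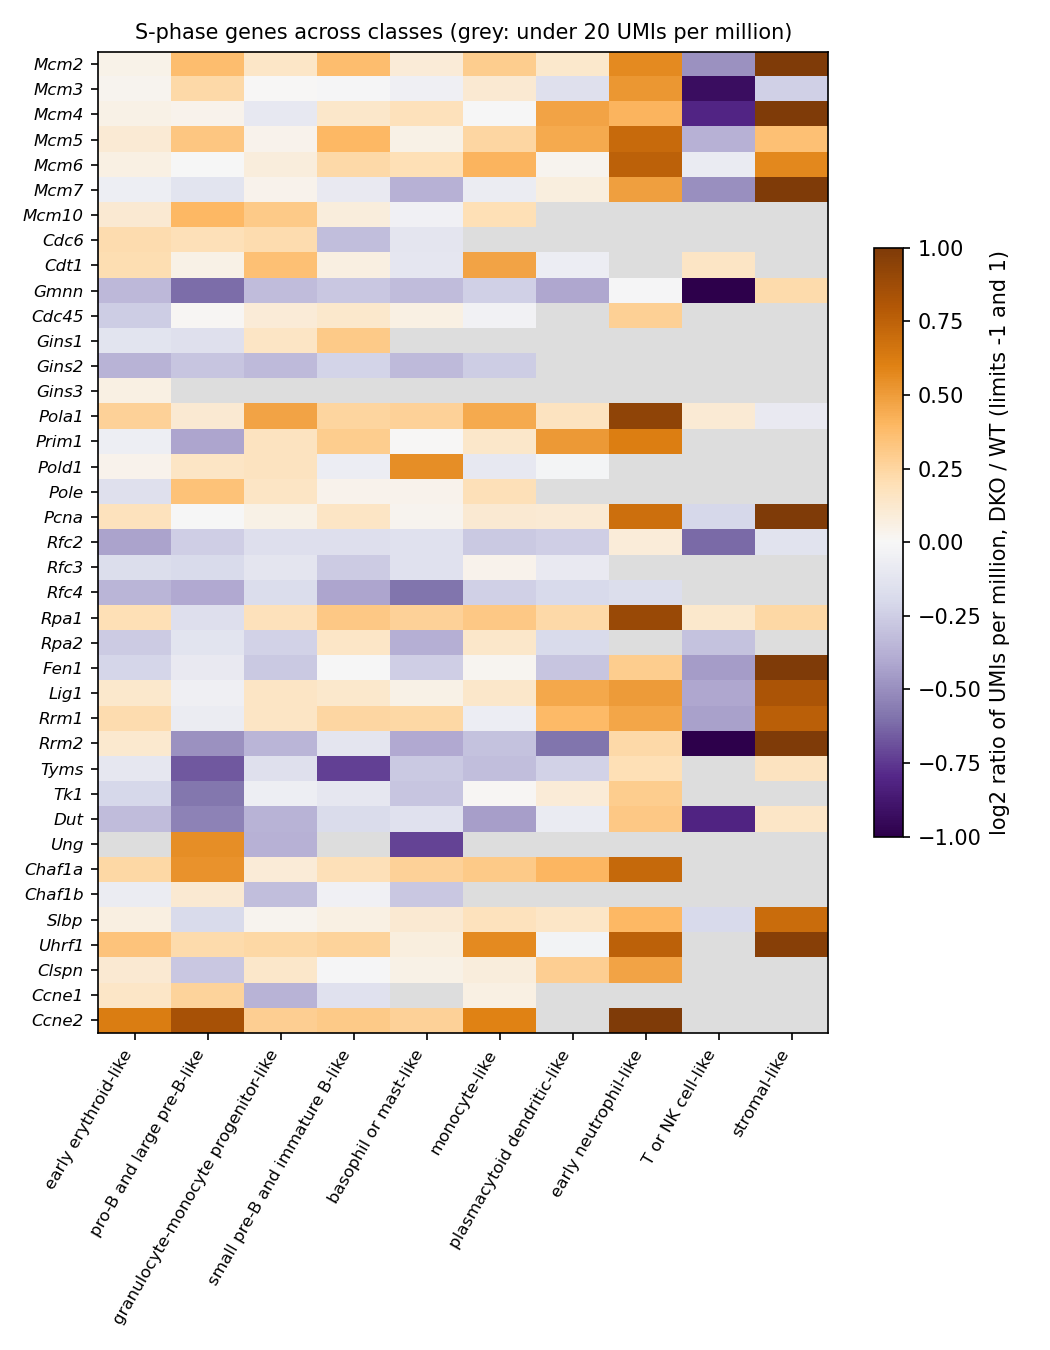
Log2 ratio of DKO to WT for each S-phase gene (rows, grouped by role) in the 10 classes with at least 19 of the genes at 20 CPM or more, orange for higher in DKO and purple for lower, with colors limited at -1 and 1 and grey below the minimum level. The rows of Gmnn, Rfc2, Rfc4 and Gins2 are mostly purple and those of Ccne2, Chaf1a and Pola1 mostly orange.

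Hemoglobin share gave a scale of erythroid maturation that does not use the S-phase genes. Within the early erythroid-like clusters the share itself differed between WT and DKO. It was 20.9% and 27.7% in the cluster of highest level and 46.6% and 56.0% in that of lowest level. In the cluster of 662 and 388 cells it was 44.9% and 54.7%, but in that of low UMIs 7.51% and 4.10%. Equal share need thus not mean equal stage, which was not tested. Among erythroid-like cells with under 15% hemoglobin the 39 genes summed to 8501 CPM in WT and 9275 CPM in DKO, a log2 ratio of 0.13 (0.11 to 0.14). From 15 to 40% they were at 8249 and 9212 CPM, a ratio of 0.16 (0.14 to 0.18). Past 1.5-fold, Ccne2 was higher in DKO under 15% (90.8 and 154 CPM, log2 ratio 0.76), which is 1 of 39 genes where 3.02% of all genes were past it upward and 2.34% downward. From 15 to 40% Ccne2 (157 and 243 CPM, 0.63) and Cdt1 (107 and 164 CPM, 0.61) were, 2 of 38 where 2.6% of all genes were past it upward and 3.25% downward. From 40 to 75% the sum dropped to 1690 CPM in WT (1661 to 1718) and 2405 CPM in DKO (2378 to 2432). It was 127 and 71.0 CPM from 75 to 90%, and 97.9 and 37.4 CPM at 90% or more.

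Since hemoglobin itself fills the denominator, the same sums were scaled to the UMIs of other genes alone. On that scale they went from 8872 CPM in WT and 9639 CPM in DKO under 15% to 11517 and 12903 CPM from 15 to 40%, and were 4105 and 5724 CPM from 40 to 75% and 907 and 469 CPM from 75 to 90%. The sum was thus highest from 15 to 40% hemoglobin in both libraries. In WT the levels at 75 to 90% and at 90% or more are in the range that reads from empty barcodes could give, since 3.30% of UMIs from that profile would supply the WT level at 90% or more.

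Single genes peaked at different points of this scale, here scaled to UMIs without hemoglobin. Dut was highest in the least hemoglobinized cells, at 1020 CPM in WT and 928 CPM in DKO, and stood at 538 and 547 CPM from 15 to 40%. Rrm2 went the other way, from 475 and 526 CPM to 1156 and 1260 CPM, and it was the highest of the genes from 40 to 75%, at 543 and 771 CPM. Slbp went from 458 and 515 CPM to 862 and 957 CPM. Pcna went from 665 and 769 CPM to 1053 and 1302 CPM, and Ccne2 from 94.8 and 160 CPM to 220 and 341 CPM. Gins2, at 71.8 and 61.2 CPM and then 47.9 and 42.0 CPM, had its higher level first, like Dut. Mcm3, Mcm5, Pold1, Pole and Ung were also higher under 15% than from 15 to 40% in both libraries, while Cdt1, Rpa2 and Chaf1b were so in WT and Rfc2 in DKO, and the remaining genes were higher from 15 to 40%.

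The 40 to 75% bin had the highest ratio of the 5 bins, at a level below that of WT empty barcodes (2967 CPM) in both libraries. The part of free RNA in it was not tested. The summed log2 ratio was 0.51 (0.48 to 0.54). At the minimum level 25 of 25 genes were higher in DKO, 22 with an interval above 0, where 60.7% of all genes were higher. Of the 25, Rfc4 (19.4 CPM in WT and 23.3 CPM in DKO) reached 20 CPM in DKO only. Past 1.5-fold were 8 genes, where 12.9% of all genes in the bin were past it upward and 5.68% downward, and the median over all 2692 genes of that level was 0.12. Rpa1 (20.2 CPM in WT and 40.2 CPM in DKO, log2 ratio 0.99), Ccne2 (42.1 and 81.1 CPM, 0.94), Uhrf1 (40.6 and 77.6 CPM, 0.93) and Pcna (131 and 228 CPM, 0.80) were furthest. Dut was least changed, at 62.4 and 63.1 CPM (0.01). The other replication genes in the same bin had a summed log2 ratio of 0.37 (0.33 to 0.40), with 21 of 23 higher and 7 past 1.5-fold, the mitosis genes of 0.14 and the G1/S regulators of 0.06.

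The difference in this bin was present at each finer step of hemoglobin. From 40 to 50% the sum was 4207 CPM in WT and 5181 CPM in DKO (log2 ratio 0.30), from 50 to 60% it was 1559 and 2799 CPM (0.84, 0.79 to 0.90), and from 60 to 75% it was 356 and 455 CPM (0.35). Mean hemoglobin within each step differed by less than 1 point between the mice. The mix of clusters differed, however, since 54.2% of WT cells and 67.7% of DKO cells of the 40 to 75% bin belonged to early erythroid-like clusters. Within those cells the sum was 2612 and 3205 CPM, a log2 ratio of 0.30 (0.27 to 0.33), and in the late erythroid-like cells of the bin it was 195 and 135.5 CPM, a ratio of -0.52. Median depth in the bin was 6390.5 UMIs per WT cell and 10613.5 per DKO cell, and its part in the ratio was not tested.

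**Figure D4:**
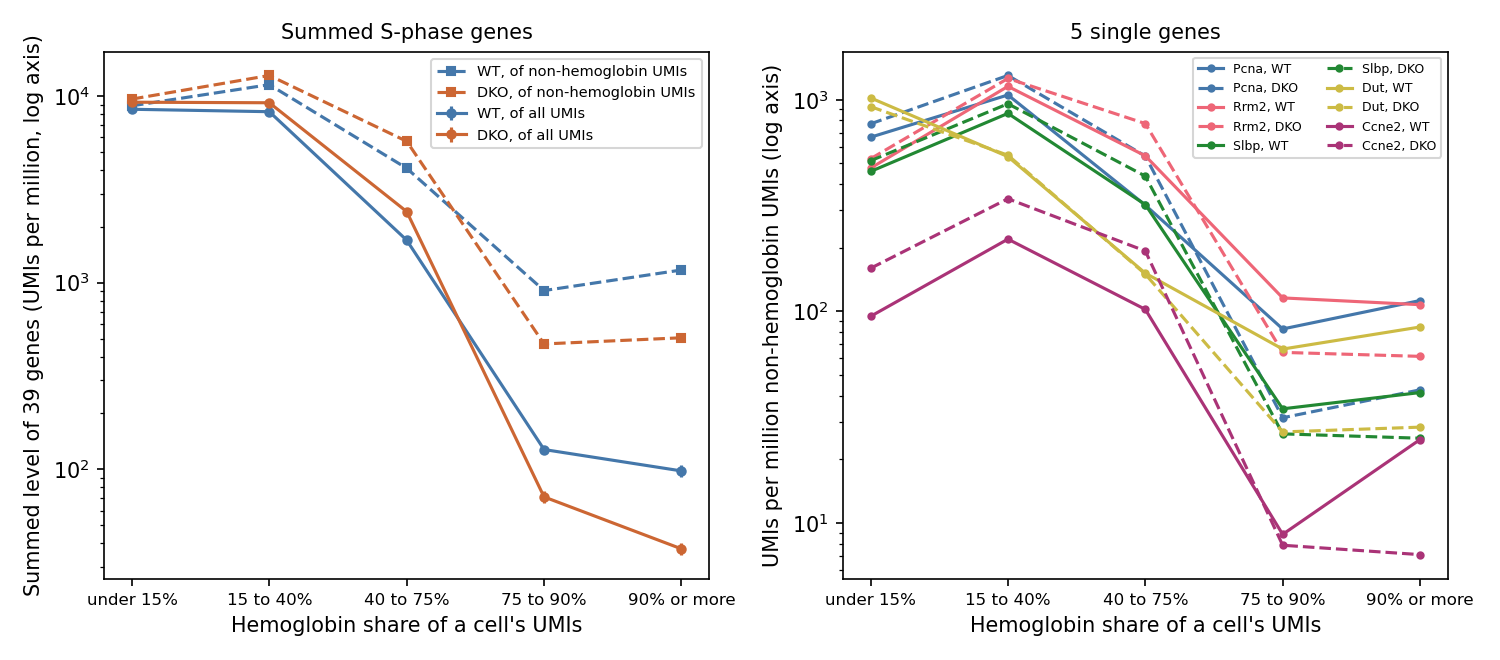
Level of the S-phase genes along 5 bins of hemoglobin share in erythroid-like cells, with log vertical axes. Left, the sum of the 39 genes in CPM of all UMIs (solid, with 95% Poisson intervals) and of non-hemoglobin UMIs (dashed), where DKO lies above WT in the first 3 bins and below it in the last 2. Right, Pcna, Rrm2, Slbp, Dut and Ccne2 in CPM of non-hemoglobin UMIs (solid WT, dashed DKO), where Dut falls from the first bin and the other 4 peak from 15 to 40%.

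Counting cells instead of molecules gave a second view. Each cell was thinned to 1000 non-hemoglobin UMIs, shallower cells were left out, and cells with 3 or more UMIs of the S-phase genes were counted. In early erythroid-like cells the share was 69.6% of 1764 WT cells (67.4 to 71.7) and 71.8% of 1666 DKO cells (69.6 to 73.9). Late neutrophil-like cells, which do not divide, gave 1.05% of 2290 WT cells and 0.275% of 2547 DKO cells, with median depths of 3177 and 3743 UMIs against 5808 and 10246.5 in the early erythroid-like class. Without thinning the early erythroid-like shares were 79.6% and 84.4%.

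In granulocyte-monocyte progenitor-like cells the share was 73.9% of 652 WT cells (70.4 to 77.3) and 63.8% of 257 DKO cells (57.6 to 69.7). The mean number of S-phase UMIs per thinned cell was nearly the same in the 2 libraries, at 4.15 and 4.13, while the share with 3 or more was lower in DKO. Without thinning the shares were 96.4% and 96.7%, so the order rests on the thinning. In pro-B and large pre-B-like cells the share was 46.5% in WT and 34.2% in DKO, with intervals that overlap, and without thinning the order turned to 74.0% and 81.0%. In early neutrophil-like cells it was 14.6% (12.6 to 16.9) in WT and 22.3% (19.4 to 25.4) in DKO. Between 40 and 75% hemoglobin it was 27.2% (24.6 to 29.9) and 39.6% (36.7 to 42.5), both of which follow the direction of the summed levels. Cells with 10 or more such UMIs were 38.9% of WT and 42.3% of DKO early erythroid-like cells, but 3.22% and 5.45% of granulocyte-monocyte progenitor-like cells.

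Shared sequence at the 3' end could affect counting for some genes. The share of 31-base words in the last 400 bases of the longest annotated transcript that also occur in transcripts of other genes was 0 for 28 of the 39 genes. It was 24.6% for Mcm7, 23.0% for Chaf1a, 22.7% for Mcm2, 20.5% for Chaf1b, 15.9% for Mcm5 and 10.8% for Rfc2, and for these genes reads could be shared or lost in counting. Ccne2 (chromosome 4, 11191351 to 11204779, plus strand), Gmnn (chromosome 13, 24751845 to 24761923, minus strand) and Pcna (chromosome 2, 132249162 to 132253314, minus strand; all GRCm38, GENCODE M21) shared none.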

How the data were processed

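Single-cell RNA libraries (10x Genomics 3' v3) of the marrow of 1 WT and 1 DKO mouse were analysed. The deposited tables hold whole UMI counts per gene and barcode, made by the authors with Cell Ranger 7.1.0 (file headers) on mm10 (submitters' processing notes); whether intronic reads were counted is not given in the sources used here. The WT table listed all barcodes and the DKO table called cells only, so WT cells were called here by the Cell Ranger order-of-magnitude rule plus a test of barcodes of at least 500 UMIs against empty barcodes of up to 100 UMIs (10000 simulated profiles, false discovery rate 0.01). This gave 19247 WT cells beside 14142 DKO cells, and 81 barcodes were in both. Cells over 20% mitochondrial UMIs (174 in WT, 215 in DKO) and doublets by Scrublet (410 and 224) were removed. Cells were clustered (2000 variable genes, 30 principal components, 15 neighbors, Leiden resolution 1) without the S-phase genes, other cell cycle genes and histone genes, and clusters were named from a fixed marker list with at least 3 markers raised.

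Counts were summed per class and library and divided by total UMIs. Intervals were exact Poisson for levels, exact conditional binomial for ratios and Clopper-Pearson for shares. On simulated counts with 200 genes changed 2-fold, the direction was recovered for 100% of them in each of 3 classes, and 100% were past 1.5-fold in early erythroid-like and progenitor-like cells and 94% in pro-B and large pre-B-like cells. Smaller ratios and differences between single mice were not covered by these simulated counts. All 39 genes were open to be named, with full values for the 12 highest in early erythroid-like cells and the 3 lowest and 3 highest ratios in the early erythroid-like, progenitor-like and pro-B-like classes; other genes were the targeted genes and those of highest level or extreme ratio in 3 comparison lists. The genes and lists were chosen with earlier results of these data known, and the early neutrophil-like and 40 to 75% hemoglobin results, the neutrophil stage genes and the Fcnb limit of 1000 CPM after the values were seen. Calls were counted in classes with at least 13 of the genes at the minimum level, a limit also set after the values were seen. Alternatives changed the scaling, cell calling, doublets, clustering, fold and thinning. Python 3.11.15, scanpy 1.11.5, leidenalg 0.10.2, numpy 2.4.6 and scipy 1.17.1 were used.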

Additional observations from a re-analysis of the deposited data

How the results depend on the processing

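Each choice was changed in turn, and values are log2 ratios of DKO to WT of the summed S-phase genes unless stated. In early erythroid-like cells (0.02) the direction turned with only cells above the order-of-magnitude UMI threshold (-0.014) and with cell cycle genes kept in the clustering (-0.030). There it was 0.12 without hemoglobin UMIs, 0.045 scaled by the median ratio of all genes, 0.067 with doublets kept, 0.0068 at resolution 0.6, 0.12 as a mean over cells and 0.15 within hemoglobin bins at WT weights. In granulocyte-monocyte progenitor-like cells (-0.04) it was -0.13 scaled by the median ratio, -0.10 at resolution 1.5 and -0.0084 as a mean over cells. In pro-B and large pre-B-like cells (-0.13) the values were -0.20, -0.065 with cell cycle genes in the clustering and -0.30 as a mean over cells. In early neutrophil-like cells (0.45) they were 0.25 by the median ratio, 0.38 with doublets, 0.32 with cell cycle genes, 0.48 and 0.37 at resolutions 1.5 and 0.6, and 0.59 as a mean over cells. From 40 to 75% hemoglobin (0.51) they were 0.48 without hemoglobin UMIs, 0.39 by the median ratio, 0.39 above the UMI threshold and 0.66 as a mean over cells. The 1 early erythroid-like gene past 1.5-fold upward became 0 with cell cycle genes in the clustering, without the cluster of low UMIs and at a fold of 2. Without thinning, shares of cells were 79.6% in WT and 84.4% in DKO (early erythroid-like), 96.4% and 96.7% (progenitor-like) and 74.0% and 81.0% (pro-B and large pre-B-like). The cause of these changes was not tested. For Ccne2 in early erythroid-like cells and Tyms, Gmnn and Ccne2 in pro-B and large pre-B-like cells, 0 of 41 values under alternatives changed direction, but each gene was inside 1.5-fold under at least 1 of them. The settings for early neutrophil-like cells, the 40 to 75% bin, the low-UMI cluster and barcodes found in both libraries were chosen after seeing the data. No paired analysis was possible because each genotype had 1 library, and for the same reason none could be left out. Differences between the mice therefore include any difference between animals, preparations and sequencing runs.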
